A study of Mus musculus with 175 samples.

Results

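GATA transcription factors bind a short DNA motif, which gives them their name, through zinc fingers. The genes followed here are Gata1, Gata2, Gata3 and Zfpm1, the last of which encodes FOG1 (Friend of GATA1), and they were taken by symbol as 4 of the 49585 mouse genes counted in single fetal liver progenitors. GATA2 is required in haematopoietic stem cells and early progenitors, and GATA1 is required for the maturation of erythroid cells and megakaryocytes. As progenitors mature, GATA1 takes the place of GATA2 at shared chromatin sites, including sites at the Gata2 gene itself, and this exchange is known as the GATA switch. FOG1 binds to the amino-terminal zinc finger of GATA factors and recruits the NuRD chromatin remodelling complex. GATA3 is best known as a regulator of T cells and innate lymphoid cells, and is also made in haematopoietic stem cells.

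The cells came from livers of mouse embryos (C57BL/6 crossed with ICR) at 14.5 days post fertilization, from 2 litters that were pooled before sorting. All embryos carried fluorescent or surface reporters in the Runx1 locus, with GFP reporting the distal promoter P1 and human CD4 the proximal promoter P2. The protocol and the article write this genotype as P1-GFP::P2-hCD4/+ while the genotype label reads P2-GFP::P2-hCD4/+. Megakaryocyte-Erythroid Progenitors (MEPs) were sorted as CD34- cells and Common Myeloid Progenitors (CMPs) as CD34+ cells of the Lin- SCA1- C-KIT+ CD16/32low CD41- CD150+ gate, and each was split by P2-hCD4 into P2- and P2+ cells. The labels call the CMPs low and high, which were read as P2- and P2+. After filters on read number, unmapped reads and spike-in reads, 103 MEPs (56 P2-, 47 P2+) and 69 CMPs (27 P2-, 42 P2+) remained, 172 of 175 cells in all. The question put to these cells was how far each of them, by its own reads, had passed from Gata2 to Gata1.

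Each cell was sequenced by Smart-Seq2, which reads whole transcripts and has no molecular identifiers, and had between 295064 and 1540631 reads on mouse genes. Levels are given as CPM, the reads of a gene per 1000000 reads on mouse genes, summed over the cells of a population. Since the livers were pooled, every population is 1 sample without a replicate, and no test between populations was possible. Intervals at 95% cover counting error only. They do not hold the spread between embryos, and PCR copies are not independent molecules. A lower pooled level can come from fewer cells with the transcript or from less RNA in each, so the number of cells with a read is given beside it, after every cell was thinned to 100000 reads on mouse genes. The reads of Cd34 went with the gates, at 0.0327 and 13.0 CPM in the P2- and P2+ MEPs and 274.3 and 541 CPM in the P2- and P2+ CMPs. Summed erythroid markers were at 1123 and 845 CPM in MEPs and 250.1 and 52.5 CPM in CMPs, P2- before P2+, megakaryocytic markers at 46.6 and 398 CPM and 441 and 528 CPM, and granulocyte and monocyte markers at 9.41 and 38.0 CPM and 315.96 and 572 CPM. Runx1 itself was higher on the P2+ side, at 23.4 against 57.0 CPM among MEPs and 71.5 against 156 CPM among CMPs. One cell-subtype label conflicted with the other labels, in 1 P2- CMP that it names an MEP, and the cell was kept as a CMP.

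The 4 genes lie on separate chromosomes of GRCm38. Gata1 spans chrX:7959260-7978071 on the minus strand, with 2438 bases of exon. Gata2 spans chr6:88193891-88207032 on the plus strand, with 5398 bases of exon. Gata3 spans chr2:9857078-9890034 on the minus strand, with 3978 bases of exon, of which 5.83% overlap exons of 9230102O04Rik or Gm13256, so that reads there cannot be assigned to 1 gene and Gata3 may be undercounted by them. Zfpm1 spans chr8:122282141-122337251 on the plus strand, with 3503 bases of exon. The exons of Gata1, Gata2 and Zfpm1 overlapped no exon of another gene in this annotation (GENCODE M21, later than the release M12 on which the reads were counted). The span of Zfpm1 is overlapped by the protein-coding gene Gm20388 on the same strand.

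GATA genes are themselves known targets of GATA factors and of CACCC-binding factors such as KLF1, so the promoter windows of the 3 GATA genes are shown, each from 250 bases before to 50 bases after the annotated start (RefSeq, GRCm38.p6, strand of the gene, 5′ to 3′). Capitals mark a GATA box (AGATAA or its variants with T as first or G as last base, or with both) or a CACCC box (CCNCNCCC), searched on both strands, and neighbouring matches can overlap.
Gata1, chrX:7967861-7968160, minus strand: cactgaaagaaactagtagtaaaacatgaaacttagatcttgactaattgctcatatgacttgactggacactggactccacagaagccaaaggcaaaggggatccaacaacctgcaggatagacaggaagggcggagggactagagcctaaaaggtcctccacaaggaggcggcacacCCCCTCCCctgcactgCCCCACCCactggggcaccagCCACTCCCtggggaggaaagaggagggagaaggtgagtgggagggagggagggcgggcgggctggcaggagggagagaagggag
Gata2, upstream start, chr6:88193641-88193940, plus strand: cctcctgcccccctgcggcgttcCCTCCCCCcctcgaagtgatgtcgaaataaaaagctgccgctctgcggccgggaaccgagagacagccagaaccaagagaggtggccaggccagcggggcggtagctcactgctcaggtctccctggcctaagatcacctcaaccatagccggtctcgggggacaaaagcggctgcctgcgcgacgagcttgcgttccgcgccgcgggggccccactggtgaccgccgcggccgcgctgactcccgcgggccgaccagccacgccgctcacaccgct
Gata2, downstream start, chr6:88198414-88198713, plus strand: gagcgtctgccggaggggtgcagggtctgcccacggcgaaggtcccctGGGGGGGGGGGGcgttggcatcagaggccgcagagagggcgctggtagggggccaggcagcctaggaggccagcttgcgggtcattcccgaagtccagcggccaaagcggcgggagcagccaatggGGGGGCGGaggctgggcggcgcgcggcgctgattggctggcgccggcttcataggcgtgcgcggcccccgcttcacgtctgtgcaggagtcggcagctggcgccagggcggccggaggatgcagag
Gata3, chr2:9878551-9878850, minus strand: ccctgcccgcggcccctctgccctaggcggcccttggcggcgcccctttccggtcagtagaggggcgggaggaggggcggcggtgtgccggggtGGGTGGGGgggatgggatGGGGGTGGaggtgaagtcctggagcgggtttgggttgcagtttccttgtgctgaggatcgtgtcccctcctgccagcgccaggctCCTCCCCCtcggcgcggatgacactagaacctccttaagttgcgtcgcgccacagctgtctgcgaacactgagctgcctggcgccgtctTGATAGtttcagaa
The Gata3 window held the only GATA box of the 4, with its first base 37 bases after the start, and 29.8% of 32841 promoter windows of the same length held a GATA box. The Gata1 window held 3 CACCC boxes, the upstream Gata2 window 1, the downstream Gata2 window 6, most of them overlapping in a run of G, and the Gata3 window 3. Such a box occurred in 49.5% of all windows. The Zfpm1 window, not printed, held 4 CACCC boxes and 0 GATA boxes. These matches describe the letters of the windows only, and regulatory elements away from the starts were not searched.

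Gata1 was high in both MEP populations and lower in CMPs, where many cells had no read of it. The lowest, median and highest P2- MEP had 73.7, 258.97 and 560.4 CPM, and every one of the 56 cells had a Gata1 read after thinning. In P2+ MEPs the lowest, median and highest cells had 26.0, 178 and 626 CPM, again with a read in all 47 cells. In P2- CMPs these were 0, 51.7 and 426 CPM, and in P2+ CMPs 0, 0 and 279.5 CPM. The ranges of all 4 populations overlapped, but 15 of 27 P2- CMPs (55.6%, Clopper-Pearson interval 35.3 to 74.5%) and 18 of 42 P2+ CMPs (42.9%, 27.7 to 59.0%) had a Gata1 read, against 100% of MEPs. CMPs with a read were not all low in it. Their median was 170 CPM in P2- CMPs and 105 CPM in P2+ CMPs, beside 250 and 180 CPM for P2- and P2+ MEPs on the same thinned scale.

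Gata2 followed another order, with its lowest level in P2- MEPs. The lowest, median and highest P2- MEP had 0, 9.28 and 173.5 CPM, and 27 of 56 cells (48.2%, 34.7 to 62.0%) had a Gata2 read after thinning. In P2+ MEPs the values were 0, 153 and 781 CPM, with a read in 46 of 47 cells (97.9%, 88.7 to 99.9%). The P2+ MEPs thus differed from the P2- MEPs both in how many cells had Gata2 and in how much each had, with a median over cells with a read of 150 CPM against 50 CPM. In P2- CMPs the lowest, median and highest cells had 0, 135 and 783 CPM, with a read in 25 of 27 cells. The highest of these is the cell whose label conflicts, and without it the highest was at 446 CPM and the pooled level of P2- CMPs at 152.23 CPM in place of 174 CPM. In P2+ CMPs they had 0, 95.01 and 409.9 CPM, with a read in 35 of 42 cells. The ranges overlapped in all 4 populations.

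Zfpm1 was read in every MEP and in most CMPs, and its ranges overlapped in all 4 populations. The lowest, median and highest cells had 27.2, 129 and 454 CPM among P2- MEPs and 50.4, 207.9 and 549 CPM among P2+ MEPs, with a read in all 56 and all 47 cells. They had 0, 61.0 and 424 CPM in P2- CMPs, and 0, 35.25 and 277.85 CPM in P2+ CMPs. A read was found in 24 of 27 P2- CMPs (88.9%, 70.8 to 97.6%) and 35 of 42 P2+ CMPs (83.3%, 68.6 to 93.0%), so FOG1 transcript was present in more CMPs than Gata1 transcript was. At 3 reads or more the shares were 74.1% of P2- and 59.5% of P2+ CMPs, beside 55.6% and 33.3% for Gata1. The share of P2- MEPs with Zfpm1 was then 92.9%.

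Gata3 was the rarest of the 4 and was nearly confined to CMPs among these cells. No read of it was counted in any of the 56 P2- MEPs, where 3 reads would have been 0.0980 CPM and the interval for the share of cells reached 6.38%. In P2+ MEPs it had 35 reads in 3 cells, and the highest of these cells, at 59.4 CPM, held 57.1% of them. A Gata3 read was found in 7 of 27 P2- CMPs (25.9%, 11.1 to 46.3%) and 12 of 42 P2+ CMPs (28.6%, 15.7 to 44.6%) after thinning, with highest cells at 96.6 and 89.1 CPM. At 3 reads or more the shares were 22.2% of P2- and 16.7% of P2+ CMPs, the opposite order, so the 2 CMP populations cannot be ranked by it. The median cell of every population was at 0, so the pooled level of Gata3 rests on a minority of cells.

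**Figure D1:**
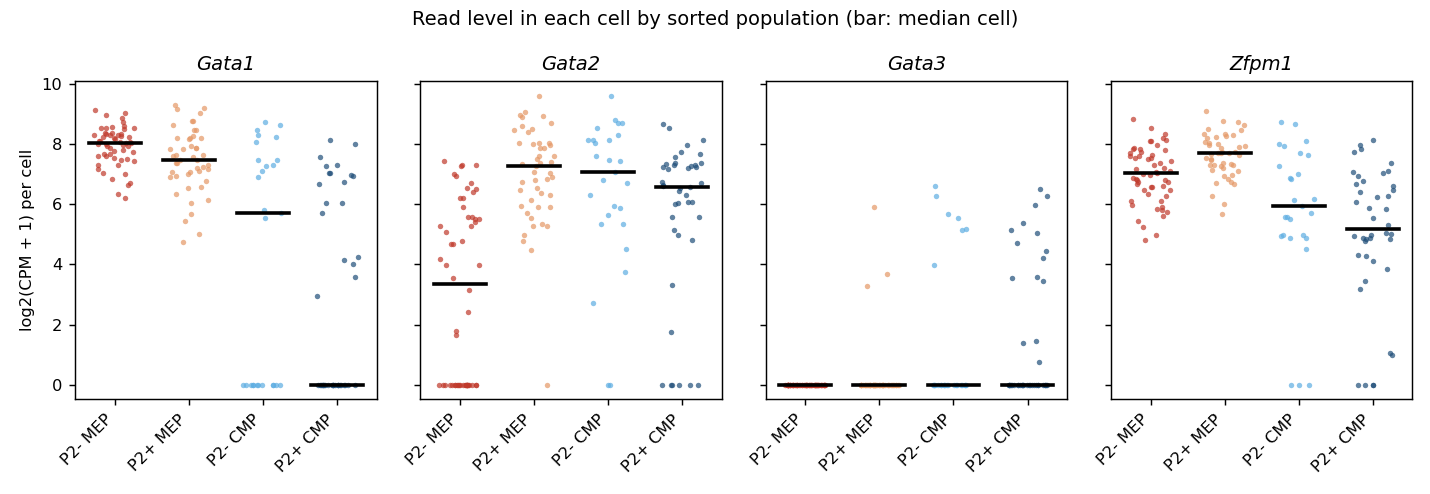
Level of each gene in each cell as log2(CPM + 1), by sorted population, with points spread sideways for visibility and a bar at the median cell. The Gata1 bar drops between the first population (258.97 CPM) and the last (0), the Gata2 bar is lowest in P2- MEPs at 9.28 CPM, Gata3 is at 0 in most cells, and Zfpm1 is above 0 in nearly all.

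Between P2+ and P2- MEPs the larger change lay in Gata2 rather than in Gata1. Pooled Gata2 stood at 35.2 CPM (33.1 to 37.4) among the P2- cells and 212.1 CPM (207 to 217.3) among the P2+ cells, which is 6.03-fold or 2.59 (2.50 to 2.69) as a log2 ratio. Pooled Gata1 was nearly level at 265.9 CPM (260.15 to 271.7) and 237.8 CPM (232.4 to 243.2), the log2 ratio being -0.16 (-0.21 to -0.12). The median cell differed more, at 258.97 and 178 CPM, and 1 cell held 10.3% of the Gata1 reads of P2+ MEPs. The Gata1 ratio was -0.26 with every cell weighted equally and -0.23 without the cell of highest CPM. Zfpm1, at 152 CPM (148 to 157) and 220.6 CPM (215.4 to 225.8), had a log2 ratio of 0.53 (0.48 to 0.59) that turned to -0.08 when reads on ERCC spike-ins were the denominator. Gata3 was at 0 against 1.11 CPM, at least 11.3-fold higher in P2+ MEPs when the P2- MEPs are set to 3 reads over the population (log2 ratio 3.50), or 2.29 on the log2 scale without the cell of highest CPM. So 2 of the 4 genes, Gata2 and Gata3, were at least 2-fold higher in P2+ MEPs and 0 were at least 2-fold lower, where 15.3% and 6.59% of the 11625 genes averaging 1 read or more per cell were. The median log2 ratio of those genes was 0.05.

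In CMPs the pooled levels of Gata1, Gata2 and Zfpm1 were lower in the P2+ cells, and that of Gata3 was so less clearly. Pooled Gata1 stood at 103 CPM (98.2 to 108) among the P2- cells and 43.6 CPM (41.5 to 45.8) among the P2+ cells, the log2 ratio being -1.24 (-1.33 to -1.14). Gata2, at 174 CPM (168 to 180.3) and 102 CPM (98.7 to 105), had a log2 ratio of -0.77 (-0.84 to -0.70). Zfpm1, at 111 CPM (106 to 116) and 61.6 CPM (59.1 to 64.2), had one of -0.85 (-0.93 to -0.76). The switch pair and FOG1 were thus lower together. Gata3 differed least, at 13.5 CPM (11.9 to 15.3) and 10.5 CPM (9.51 to 11.7). Its log2 ratio was -0.36 (-0.59 to -0.12), or -0.03 with ERCC reads as denominator. Gata1 alone was at least 2-fold lower, where 9.36% of 11826 genes were, and 0 of the 4 were at least 2-fold higher, where 9.82% were. The median log2 ratio of all those genes was -0.02.

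The comparison of CMPs with MEPs, run within P2- and within P2+ cells on the same 4 samples, gave opposite directions for Gata2. Its log2 ratio was 2.31 (2.21 to 2.41) in P2- CMPs over P2- MEPs and -1.06 in P2+ CMPs over P2+ MEPs. Gata1 was lower in CMPs in both, with log2 ratios of -1.37 (-1.44 to -1.30) and -2.45 (-2.53 to -2.37). Zfpm1 was also lower in both, at -0.46 (-0.54 to -0.38) and -1.84 (-1.91 to -1.77). Gata3 was higher in CMPs in both, at least 138-fold in P2- cells and 9.50-fold in P2+ cells, with log2 ratios of 7.11 as a bound (lower counting limit 6.80) and 3.25 (2.75 to 3.79). The bound was 6.59 with ERCC reads as denominator, and the ratio in P2+ cells was 4.17 without the cell of highest CPM in each population and 2.47 with DESeq2 size factors. Among P2- cells 2 members were at least 2-fold higher and 1 lower, with 22.6% and 9.34% of 11793 genes so, and among P2+ cells 1 was higher and 3 lower, with 17.0% and 10.3% of 11841 genes so. Gata2 was 1 of those 3 and lay at the 2-fold line. Its log2 ratio in P2+ cells fell short of 2-fold with equal cell weights (-0.82), DESeq2 size factors (-0.92) and ERCC reads as denominator (-0.62). It also did so without the cell of highest CPM in each population (-0.97).

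**Figure D2:**
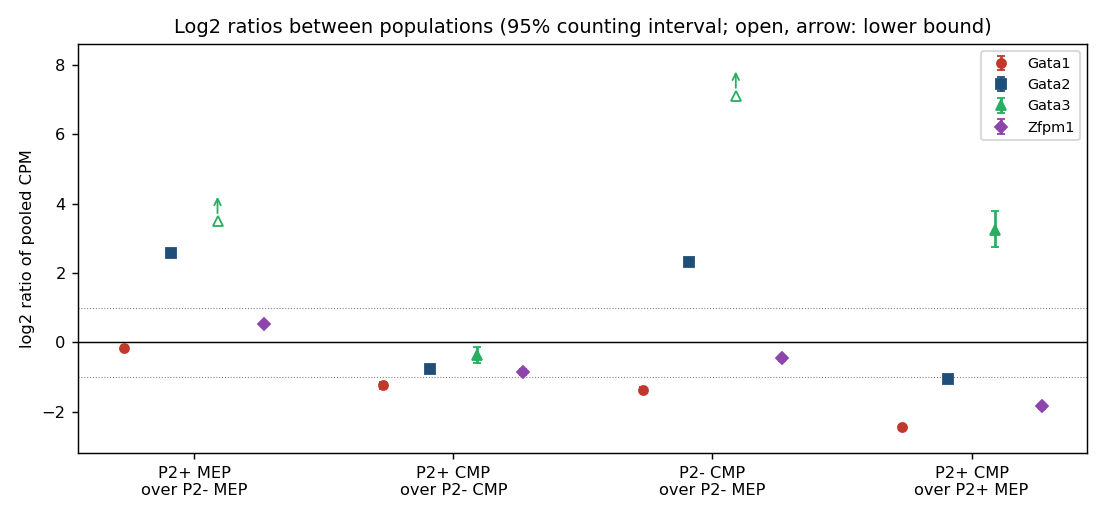
Log2 ratio of pooled CPM of each gene in 4 comparisons of populations, with 95% counting intervals that are mostly smaller than the symbols, dotted lines at 2-fold, and open symbols with arrows for lower bounds where a population had 0 reads. Gata2 lies at 2.59 in P2+ over P2- MEPs and at -0.77 in P2+ over P2- CMPs, and Zfpm1 at 0.53 (-0.08 with ERCC reads as denominator) and -0.85.

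Scaling to the spike-ins, RNAs added from outside the cell, moved all genes of a population together. With ERCC reads as denominator the median log2 ratio of all genes was -0.57 for P2+ over P2- MEPs, against 0.04 with total reads, and 0.30 for CMPs, against -0.03. On that scale Gata1 was at -0.78 and Gata2 at 1.98 in MEPs. Relative to the shift of all genes, Gata2 and Zfpm1 remained above it in MEPs and Gata1 below it.

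Levels of different genes can be compared only per length of exon. On that scale Gata1 was above Gata2 in both MEP populations and in P2- CMPs, and about level with it in P2+ CMPs. Per kilobase of exon, Gata1 was at 109 CPM and Gata2 at 6.52 CPM in the P2- MEPs, whereas P2+ MEPs had 97.5 and 39.3 CPM. The P2- CMPs had 42.2 and 32.3 CPM, and the P2+ CMPs 17.9 and 18.9 CPM. Of the pair's reads per kilobase Gata1 therefore made up 94.4% and 71.3% in the MEP populations, P2- before P2+, and 56.7% and 48.7% in the CMP populations. Zfpm1 was at 43.5, 63.0, 31.6 and 17.6 CPM per kilobase in the same order, and was thus above Gata2 in both MEP populations.

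The pooled shares hid different mixtures of cells. After thinning, 29 of 56 P2- MEPs had Gata1 alone and 27 had both genes (48.2%, 34.7 to 62.0%). Of the P2+ MEPs, 46 of 47 had both (97.9%, 88.7 to 99.9%) and 1 had Gata1 alone. After thinning, 0 MEPs had Gata2 without Gata1. The CMPs split another way, with 14 of 27 P2- CMPs carrying both genes (51.9%, 31.9 to 71.3%), 11 Gata2 alone, 1 Gata1 alone and 1 neither. Of the 42 P2+ CMPs, 17 had both (40.5%, 25.6 to 56.7%), 18 Gata2 alone, 1 Gata1 alone and 6 neither. Cells with both transcripts were thus found in every population, 104 of 172 in all, and the single-gene cells were nearly all Gata1-alone in MEPs and Gata2-alone in CMPs.

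The share of Gata1 in single cells was wide in every population but the P2- MEPs. It was computed in cells with at least 5 thinned reads of the pair. The lowest, median and highest shares were 59.6, 100 and 100% over 56 P2- MEPs and 8.45, 71.9 and 100% over 47 P2+ MEPs. Over 22 P2- CMPs they were 0, 47.2 and 100%, and over 32 P2+ CMPs 0, 15.4 and 100%. The CMP medians depended on the processing. At 50000 reads per cell they were 52.5% for P2- and 44.6% for P2+ cells, and without division by length 28.8 and 7.61%, so the order of the 2 CMP populations was kept but not the distance between them. Among MEPs, 17 of 56 P2- and 40 of 47 P2+ cells lay between 10 and 90%, and among CMPs 13 of 22 P2- and 17 of 32 P2+ cells did. The P2+ MEPs were thus the population with most cells between the ends of the scale, while 39 P2- MEPs were over 90% and 14 P2+ CMPs under 10%.

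**Figure D3:**
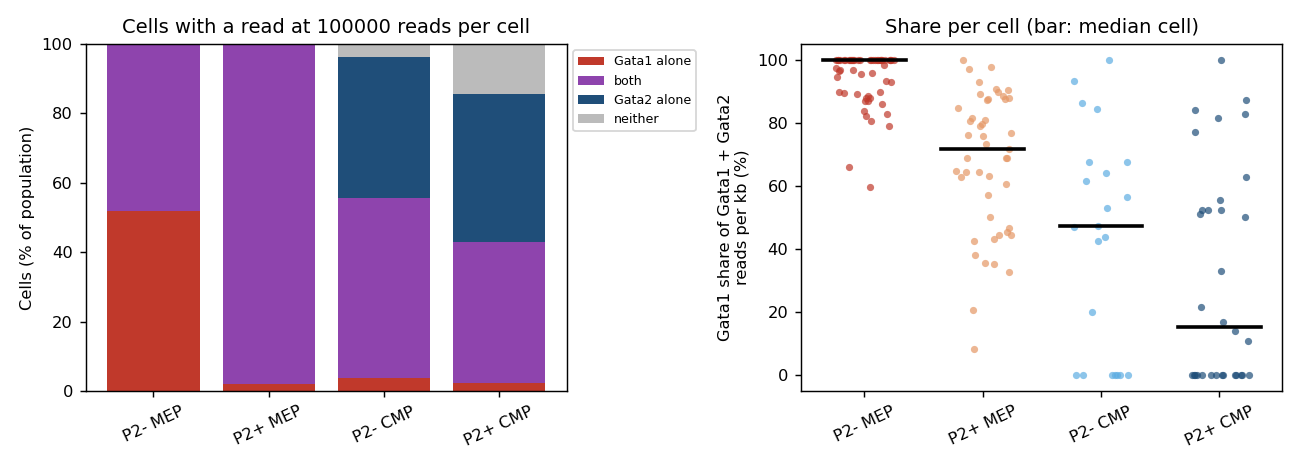
Left, cells of each population (%) with a read of Gata1 alone, both genes, Gata2 alone or neither at 100000 reads per cell. Right, Gata1 share of Gata1 and Gata2 reads per kilobase (%) in each cell with at least 5 reads of the pair, with a bar at the median cell, which is at 100, 71.9, 47.2 and 15.4% from P2- MEPs to P2+ CMPs (52.5 and 44.6% in the CMPs when thinned to 50000 reads).

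Across cells the levels of Gata1 and Gata2 were not opposed. Spearman's rho between them was -0.05 over the 172 cells, and within populations 0.04 and -0.04 for the P2- and P2+ MEPs but 0.53 and 0.38 for the P2- and P2+ CMPs. In CMPs, then, cells with more Gata1 tended to have more Gata2. These values describe cells of 1 pool that share a sort, and the total mouse reads of a cell had a rho of -0.28 and -0.31 with Gata1 and of -0.31 and -0.34 with Gata2 in P2- and P2+ CMPs. The part of depth in the relation was not tested. Zfpm1 had a rho with Gata1 of 0.37 in P2- CMPs and 0.54 in P2+ CMPs, and with Gata2 of 0.51 and 0.26. Gata3 ran the other way from Gata1, at -0.48 and -0.24 in the same populations.

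**Figure D4:**
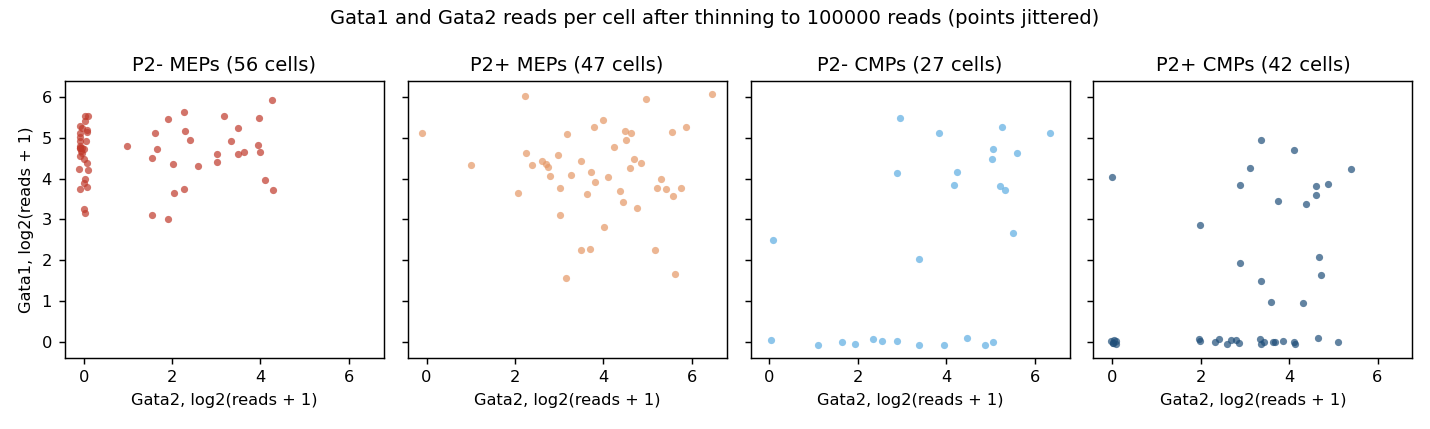
Gata1 against Gata2 in each cell, as log2(reads + 1) after thinning to 100000 reads, with small sideways shifts to separate points. Of the P2- MEPs, 29 of 56 lie on the Gata1 axis and the other 27 reach into the range of the P2+ MEPs, of which 46 of 47 lie off both axes. CMPs lie on the Gata2 axis (11 of 27 P2- and 18 of 42 P2+ cells) and off both axes (14 and 17 cells).

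The CMPs with both genes differed between P2- and P2+ in the other regulators they carried, as did all cells of these populations. Of the 14 P2- CMPs with both, 13 had a read of Klf1, the erythroid factor that GATA1 activates, 14 of Gfi1b and 7 of Spi1, which encodes PU.1, the myeloid factor that antagonises GATA1. Of the 17 P2+ CMPs with both, 2 had a Klf1 read, 15 a Gfi1b read and 15 a Spi1 read. Among all CMPs, Klf1 was read in 14 of 27 P2- and 2 of 42 P2+ cells, Gfi1b in 16 and 27, and Spi1 in 19 and 39. For Spi1 the P2+ CMPs with both genes were thus near the rate of all P2+ CMPs. The only 2 P2+ CMPs with a Klf1 read were among the 17 with both genes. Among Gata2-alone CMPs, Spi1 was read in 11 of 11 P2- and 18 of 18 P2+ cells and Klf1 in 1 and 0. The 6 P2+ CMPs with neither Gata1 nor Gata2 all had reads of Spi1, Fli1 and Cd34, as did 39, 39 and 41 of all 42 P2+ CMPs, while 4 had Zfpm1 and 3 had Gata3. Over P2- CMPs the rho of Gata1 was 0.87 with Klf1 and -0.58 with Spi1, and over P2+ CMPs 0.23 and -0.61. The pooled level of Klf1 differed accordingly, 87.4 CPM against 4.59 CPM.

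Most CMPs with Gata3 lacked Gata1, as did many CMPs in all. Of the 7 P2- CMPs with Gata3, 6 lacked Gata1, against 12 of all 27, and all 7 had Gata2. Of the 12 P2+ CMPs with Gata3, 8 lacked Gata1, against 24 of all 42, and 9 had Gata2. Both P2+ MEPs with Gata3 after thinning also had Gata1 and Gata2. Few lymphoid markers were read in these cells. Cd3e, Il7r and Il2rb were at 0 reads in all 4 populations. The antibodies of the lineage gate include ones against the proteins of Cd3e and Il7r, so cells carrying these would be removed by the sort. The 7 markers of T cells and innate lymphoid cells summed to between 1.40 and 19.2 CPM per population. Before thinning, Thy1 was read in 2 of 7 P2- CMPs with Gata3 and 0 of 20 without, and Rora in 2 of 7 and 1 of 20, while Zbtb16 went the other way, in 0 of 7 and 3 of 20. In P2+ CMPs Thy1 was read in 1 of 15 with and 2 of 27 without Gata3, and Rora in 1 of each. In P2+ MEPs Zbtb16 was read in 0 of 3 with and 6 of 44 without Gata3, and Tcf7 in 0 of 3 and 2 of 44. Of the mast cell and basophil markers, Ms4a2, Fcer1a, Prss34 and Cma1 were at 0 throughout, but Cpa3 (mast cell carboxypeptidase) was at 72.7 CPM in P2- CMPs and 34.2 CPM in P2+ CMPs and Hdc (histidine decarboxylase) at 24.8 and 7.13 CPM, chiefly in cells without Gata3. After thinning, Cpa3 was read in 7 of the 14 P2- CMPs with both Gata1 and Gata2, against 9 of all 27 and 2 of the 11 with Gata2 alone. Hepatocyte markers summed to between 10.3 and 24.7 CPM per population, and the 4 macrophage markers to between 1.27 and 8.84 CPM, nearly all of it Cd68 (1.18 to 8.74 CPM), with Adgre1 and C1qa at 0. The part of such other cell types in the values of the GATA genes was not tested.

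The relatives of the 4 genes were all but silent. Gata4, Gata5 and Gata6, which act mainly in heart, gut and endoderm, had 0 reads in all cells. Zfpm2 (FOG2) had 14 reads in P2- CMPs and 18 in P2+ CMPs. Trps1, an atypical GATA-type repressor, was at most 2.34 CPM, in P2+ MEPs.

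For the proteins that GATA1 and FOG1 work with, the counts are read against all genes, of which 15.3% were at least 2-fold higher and 6.59% lower in P2+ MEPs, and 9.82% and 9.36% in P2+ CMPs. Of 11 genes for the SCL complex, the TAL1, LMO2, LDB1 and E-protein assembly that joins GATA1 or GATA2 on DNA, 0 differed 2-fold between P2+ and P2- cells in MEPs or in CMPs, with a median log2 ratio of -0.05 and -0.36. In CMPs the log2 ratios of these 11 ranged from -0.88 for Ldb1 to 0.14 for Cbfa2t2. Of 16 genes for FOG1 partners, mostly NuRD subunits, Chd3 alone passed 2-fold, with 0 reads in P2- MEPs against 2.19 CPM in P2+ MEPs (at least 4.48 on the log2 scale), and the medians were -0.10 and 0.04. Among 16 coregulators and antagonists of GATA1, 4 were at least 2-fold higher in P2+ MEPs, namely Fli1 (3.44), Spi1 (2.10), Runx1 (1.29) and Cbfb (1.01), and 0 were lower. In CMPs Runx1 (1.12) was 2-fold higher and Klf1 (-4.25) 2-fold lower. Runx1 carries the reporter the cells were sorted on, so its direction goes with the sort and is no separate finding.

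The targets that GATA1 activates were apart in the 2 lineages. Of 28 erythroid targets, 24 averaged 1 read or more per cell, and 6 of these were at least 2-fold lower and 2 higher in P2+ MEPs, with a median log2 ratio of -0.60 beside 0.05 over all genes, of which 6.59% were lower and 15.3% higher. Rhag (-2.63), a red cell membrane protein gene, and Tfrc (-1.45), which serves iron uptake, were among the lower, and Alas2 (1.96, at 1.08 and 4.18 CPM) and Bcl2l1 (1.64) the higher. In CMPs 7 were lower and 1 higher in P2+ cells, with a median of -0.53 beside -0.02 and with 9.36% of all genes lower and 9.82% higher, and Ermap and Kel were among the genes with 0 reads in P2+ CMPs. The globin gene Hbb-bt, at 232.2 CPM in P2- CMPs and 9.51 CPM in P2- MEPs against 0.545 and 65.6 CPM for its near-identical neighbour Hbb-bs, is uncertain, as reads can pass between the copies. Of 12 megakaryocytic targets, 9 were tested and 8 of them were at least 2-fold higher in P2+ MEPs (15.3% of all genes), with a median of 3.89, including Gp9 (0 against 67.2 CPM) and Gp1bb (0 against 30.02 CPM). In CMPs 3 were higher and 1 lower, with a median of 0.29. The medians of the erythroid and megakaryocytic targets thus lay on opposite sides of 0 in MEPs, beside a Gata1 log2 ratio of -0.16.

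**Figure D5:**
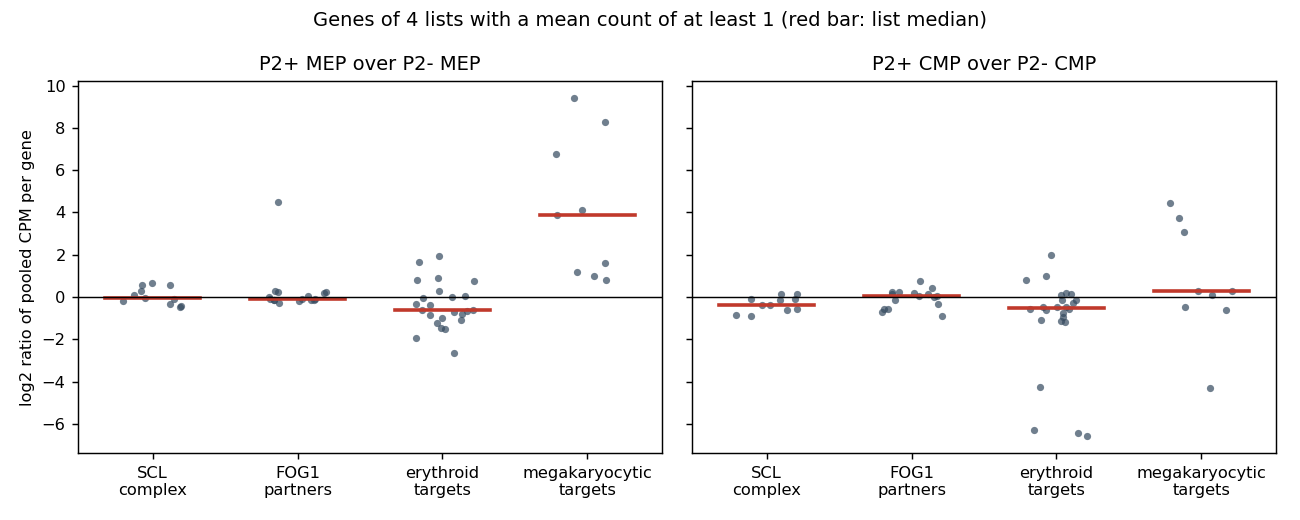
Log2 ratio of pooled CPM of P2+ over P2- cells for genes averaging 1 read or more per cell in 4 lists, in MEPs (left) and CMPs (right), with genes at 0 reads in a population set to 3 reads and a red bar at the list median. The megakaryocytic targets have a median of 3.89 in MEPs and 0.29 in CMPs, the erythroid targets -0.60 and -0.53, the SCL complex -0.05 and -0.36, and the FOG1 partners -0.10 and 0.04, with Chd3 alone far above at 4.48 (a bound) in MEPs.

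Genes that are known to be repressed as GATA1 replaces GATA2 did not follow one direction. All counts here stand beside 15.3% of all genes higher and 6.59% lower in P2+ MEPs, and 9.82% and 9.36% in P2+ CMPs. Of the 11 tested, Gata2 among them, 4 were at least 2-fold higher in P2+ MEPs, which besides Gata2 were Cd34 (1 read in P2- and 412 reads in P2+ MEPs), Spi1 (2.10) and Il3ra (1.54), and 0 differed 2-fold in CMPs, with medians of 0.16 and 0.01. Kit, the stem cell factor receptor that cells were sorted on, was at 293.3, 262.2, 369.4 and 259.3 CPM from P2- MEPs to P2+ CMPs. Of 13 tested genes associated with GATA2 in stem and mast cells, Gata2 again included, 9 were at least 2-fold higher in P2+ MEPs, among them Meis1 (3.49) and Hoxa9 (1.84), with a median of 1.60. In CMPs 2 were higher, Runx1 (1.12) and the mast cell factor gene Mitf (3.01), and 2 lower, Cpa3 (-1.09) and Hdc (-1.80). Mitf had 4 reads in P2- and 64 reads in P2+ CMPs and was read in 1 cell of each after thinning. Of 13 tested genes for turnover and translation of GATA proteins, 1 passed 2-fold in MEPs and 0 did in CMPs. Rps19, a ribosomal protein gene whose loss lowers GATA1 translation, was at between 2182 and 2269.8 CPM, and Hspa1b, one of the genes for HSP70, a chaperone of GATA1, was at most 0.855 CPM.

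The genes whose levels went most with each member across the 172 cells were sought among 8027 genes read in at least 25% of cells. With Gata1 these were Klf1 (rho 0.62), Gm15915 (0.62), Hdgf (0.62), Smim1 (0.61) and Mt1 (0.61), and among the most opposed were Cd34 (-0.69), Adgrl4 (-0.68), Tmem176b (-0.67) and Mycn (-0.66). Within MEPs these relations were weak or not seen. The rho of Klf1 was 0.02 for P2- and 0.05 for P2+ cells. Over the highest 5 genes rho lay between -0.06 and 0.06 in P2- MEPs and between 0.04 and 0.28 in P2+ MEPs. The opposed genes named lay between -0.31 and 0.04 in MEPs, where a rho could be computed. Gata2 had few close companions, with 8 genes at a rho of at least 0.4 against 111 for Gata1, led by Celf2, Apoe and Srgn (each 0.50) and, on the opposed side, Pklr (-0.48) and Atp7b (-0.47). Within populations Celf2 had a rho between -0.05 and 0.39, Apoe between 0.14 and 0.54, Srgn between 0.16 and 0.44 and Atp7b between -0.28 and 0.03, while Pklr gave no rho in the CMPs. Gata3 went with Adgrl4 (0.53), Cd34, Arhgef6, Gimap6 and Ifitm1 (each 0.49), but 1 of these 5 genes stayed among the 5 highest when genes read in at least 10% of cells were searched. Zfpm1 went with mt-Nd2 (0.64), mt-Nd4 (0.61), Mir6236 (0.59), Mfsd2b (0.58) and Ybx3 (0.58) and against Cd34 (-0.60). The rho of Zfpm1 with mt-Nd2 was 0.46 and 0.26 within P2- and P2+ MEPs and 0.73 and 0.16 within P2- and P2+ CMPs. With Mir6236 it was 0.49 and 0.29 within the MEP populations and 0.68 and 0.06 within the CMP populations, P2- before P2+. All these rho values pool populations of different level, and describe cells that share a pool, gates and depth.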

How the data were processed

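Single cells of 4 sorted fetal liver populations were sequenced by Smart-Seq2. Per the labels and the article, the authors trimmed reads with Trimmomatic 0.36, aligned them with STAR 2.4.2a to GRCm38 with ERCC sequences and counted them with HTSeq 0.6.1p1 on GENCODE M12 exons, without strand. The deposited tables hold raw counts, not normalized, and the authors' unmapped reads as a percent of all reads in a cell. Cells with fewer than 250000 reads, over 25% unmapped reads or over 15% ERCC reads were removed, as in the article. The 5 HTSeq tally rows were left out. Ambiguous reads were 25.6% and reads on no gene 7.40% of the uniquely mapped reads.

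Counts were summed per population and divided by reads on mouse genes (CPM), with exact Poisson, conditional binomial and Clopper-Pearson intervals (Python 3.11.15, scipy 1.17.1). Ratios were taken between populations with 3 reads set for 0, and no ratio was given where both were at or under 3 reads. Thinning was without replacement. Per-kilobase values used M21 exons. The script was tested on simulated data. Alternatives were equal cell weights, DESeq2 1.42.0 size factors, ERCC reads or a total without mitochondrial and Rn18s-rs5 reads as denominator, all cells, other thinning and detection limits, and left-out cells. The genes and lists were chosen with earlier results of these data known. Genes named were the 4 members, list genes, and the 5 highest and lowest by Spearman's rho at an absolute rho of at least 0.4. A few genes that this rule would name are not reported here.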

Additional observations from a re-analysis of the deposited data

Results flagged for a closer look

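The pooled log2 ratios of Gata2, Gata3 and Zfpm1 between P2+ and P2- cells had opposite signs in MEPs and in CMPs. The log2 ratio of Gata2 was 2.59 in MEPs and -0.77 in CMPs. That of Gata3 was 3.50, a lower bound, in MEPs and -0.36 in CMPs, or -0.03 in CMPs with ERCC reads as denominator. The MEP value for Gata3 rests on 35 reads in 3 cells, and the share of cells with it did not rank the CMP populations. The log2 ratio of Zfpm1 was 0.53 in MEPs, or -0.08 with ERCC reads as denominator, and -0.85 in CMPs. With 1 sample per population the difference between MEPs and CMPs was not tested.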

How the results depend on the processing

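The alternatives changed sizes more than directions. Of 108 recomputed log2 ratios of the 4 genes, 62 stayed within their counting interval or, for the Gata3 bounds, which have no upper limit, within 0.05 of the value given, 45 moved by more and 1 changed sign, and all 13 recomputed shares of cells with both Gata1 and Gata2 stayed within theirs. The median Gata1 share per cell, which has no such interval, moved by over 1.5 times in CMPs, to 28.8% (P2-) and 7.61% (P2+) without division by length and to 44.6% (P2+) at 50000 reads, and by less in the other 10 cases. Of 80 levels 38 moved, of 64 shares of cells 2, of 19 rho values 1, and of 40 list values 14, among them the genes most like Gata3, of which 1 of 5 stayed when genes read in at least 10% of cells were searched. With ERCC reads as denominator, the log2 ratios of P2+ over P2- MEPs and CMPs were -0.78 and -0.91 for Gata1, 1.98 and -0.44 for Gata2, 2.88 (a bound) and -0.03 for Gata3, and -0.08 (reversed) and -0.52 for Zfpm1, where the median of all genes shifted to -0.57 and 0.30. With every cell weighted equally they were -0.26 for Gata1 and 2.49 for Gata2 in MEPs, and -0.72 for Zfpm1 in CMPs. DESeq2 size factors gave 0.60 and -0.74 for Zfpm1. Without the cell of highest CPM they were -0.23 and -1.44 for Gata1, -0.66 for Gata2 in CMPs and 2.29 (a bound) for Gata3 in MEPs. Without the P2- CMP of conflicting label, Gata1 was at -1.12 and Gata2 at -0.58 in CMPs. Without thinning, the rho of Gata1 and Gata2 in P2- MEPs turned to -0.06 from 0.04. Apart from the ERCC scale, where the other denominator itself sets the shift, the cause was not tested. The Gata3 bound was not computed with equal weights or DESeq2 size factors. No paired analysis was possible because each population is 1 sample of pooled livers, and no sample could be left out for the same reason. At this depth a gene with 0 reads in a population was below about 0.0825 to 0.164 CPM.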
